A study of Mus musculus with 12 samples.

Results

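Interferon-stimulated and MHC class I genes were followed in RNA sequencing of primary mouse embryonic fibroblasts with or without the long noncoding RNA lincRNA-p21. A gene was a member when its row name in either deposited table began with, or equalled, one of a set of name stems for interferon receptors (IFNAR, IFNGR), interferon regulatory factors (IRF and a digit), STAT factors, interferon-induced genes (IFI, ISG, OAS, GBP, IRGM, IGTP, MX2 and similar), and antigen presentation genes (B2M, TAP1, TAP2, TAPBP and H2-D, K, Q, T or M). No measured value entered that choice. It gave 62 members among the 11481 genes in either table. Of these, 50 were in the table of mock cells, 60 in the table of doxorubicin-treated cells and 48 in both.

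The groups were wild-type cells (WT, lincRNA-p21+/+) and knockout cells (KO, lincRNA-p21-/-), each mock treated or given doxorubicin, with 3 libraries in each of the 4 groups. All cells were primary cultures on a hybrid 129/B6 strain background. Doxorubicin, an anthracycline that breaks DNA and activates p53, was given at 0.5 mM for 24 h according to the labels, a dose whose unit is in doubt. The libraries are described as biological triplicates, but the labels do not say whether they came from separate embryos, so p-values measure the spread between these libraries. LincRNA-p21 itself was not analysed here and could not serve to check the genotype labels.

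Library totals lay between 14327048 and 20511907 reads, and values were CPM, in which the reads of each gene are scaled by the total of its library. Of 15 fibroblast markers, 14 were listed in each table. For numbers 1 to 3 they summed to 73857, 62012 and 69608 CPM in WT mock and 60973, 52773 and 69157 CPM in KO mock. After doxorubicin the fibroblast sums were 43724, 35217 and 37770 CPM in WT and 41269, 32090 and 40647 CPM in KO. Of 20 markers of macrophages and other blood cells, the mock table listed 1, the lysosomal gene Cd68. It stood at 29.2, 8.87 and 2.84 CPM in WT mock libraries 1, 2 and 3 and at 58.3, 14.9 and 2.42 CPM in KO mock libraries 1, 2 and 3. Cd68 was thus highest in replicate number 1 of each genotype. After doxorubicin 3 of the 20 (Cd68, Cd14 and Coro1a) were listed, and their sums for numbers 1 to 3 were 175, 123 and 84.3 CPM in WT and 148, 106 and 70.5 CPM in KO. Of 10 endothelial markers 3 were listed in each table, without Pecam1 or Cdh5. They summed to 46.5, 51.3 and 33.4 CPM in WT mock and 33.8, 39.7 and 20.4 CPM in KO mock, and to 104, 88.4 and 82.7 CPM in WT and 70.0, 79.2 and 58.5 CPM in KO after doxorubicin. Of 8 epithelial markers, the 2 listed in mock cells summed to 17.9, 29.4 and 13.5 CPM in WT and 19.0, 37.4 and 6.43 CPM in KO. The 3 listed after doxorubicin summed to 145, 263 and 169 CPM in WT and 87.7, 258 and 90.4 CPM in KO. Of 6 neural markers, each table listed 2. They summed to 227, 457 and 256 CPM in WT mock and 313, 528 and 210 CPM in KO mock. After doxorubicin the neural sums were 449, 557 and 595 CPM in WT and 408, 573 and 419 CPM in KO. In mock cells the fibroblast and endothelial sums were thus lower in KO in every pair. Cd68 and the epithelial and neural sums were above WT in pairs 1 and 2 and below it in pair 3. After doxorubicin the blood, endothelial and epithelial sums were lower in KO in every pair, and the endothelial groups did not overlap. The fibroblast sum was below WT in pairs 1 and 2 and above it in pair 3. The neural sum was above WT in pair 2 and below it in pairs 1 and 3. No listed gene had a WT library at or under 2 CPM, but KO libraries at or under that level occurred for 7 members in mock cells and 3 after doxorubicin. A member could therefore enter through its WT level while low in KO, and this limits every count and median of the members below.

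Interferons are secreted antiviral proteins that bind cell-surface receptors and, through JAK kinases, activate transcription factors of the STAT family. A complex of these with IRF9 binds the interferon-stimulated response element (ISRE), whereas STAT dimers bind the gamma-activated site (GAS). The genes so induced include sensors of viral RNA, proteins that block viral replication, large GTPases that attack intracellular vacuoles, and the machinery that loads peptides onto MHC class I. Fibroblasts respond to interferon and also produce interferon-beta themselves when nucleic acid sensors are engaged.

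By role, the members were 4 interferon receptor chains, 2 RNA sensors, 9 transcription factors, 22 antiviral effectors, 6 interferon-inducible GTPases, 3 genes of the p200 family of DNA-binding proteins and 10 genes of MHC class I presentation. Ifi47 and Mx2 also encode interferon-inducible GTPases but were counted among the antiviral effectors, so the GTPase group is not complete. The remaining 6 matched by name alone: H2-DMa, which belongs to MHC class II, H2-Ke2, which encodes a prefoldin subunit, H2-Ke6, the IRF2-binding protein genes Irf2bp1 and Irf2bp2, and Isg20l2. Genes with near-identical relatives (Ifit, Ifi27, Ifitm, Gbp, Irgm, Oas, p200 and H2 genes) are given with the reservation that reads may have been shared or lost among copies in counting.

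Promoters of the members with the widest genotype differences, and of B2m, are shown because the ISRE and GAS letters stand beside the genes whose levels are described next. The sequences are RefSeq's, 250 bases before to 50 after the start of the gene on GRCm38.p6, printed 5′ to 3′ on the strand of the gene, and the expression files used another build (NCBIM37). Capitals mark matches to the ISRE letters (GAAA, any 2 bases, then GAAA) or the GAS letters (TTC, any 3 bases, then GAA), searched on both strands.
Ifi202b, chr1:173982795-173983094, minus strand: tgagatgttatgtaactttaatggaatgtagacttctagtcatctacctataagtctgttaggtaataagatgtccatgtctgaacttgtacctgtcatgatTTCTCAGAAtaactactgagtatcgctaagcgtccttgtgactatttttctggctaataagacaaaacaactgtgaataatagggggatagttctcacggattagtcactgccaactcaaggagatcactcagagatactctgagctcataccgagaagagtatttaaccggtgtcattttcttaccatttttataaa
Isg15, chr4:156200769-156201068, minus strand: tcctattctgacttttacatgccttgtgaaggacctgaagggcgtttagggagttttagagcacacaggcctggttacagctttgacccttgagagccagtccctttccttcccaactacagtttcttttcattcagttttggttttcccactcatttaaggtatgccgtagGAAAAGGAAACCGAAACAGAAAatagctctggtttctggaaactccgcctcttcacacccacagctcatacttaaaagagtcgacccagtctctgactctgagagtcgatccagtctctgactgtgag
Ifit1, chr19:34640639-34640938, plus strand: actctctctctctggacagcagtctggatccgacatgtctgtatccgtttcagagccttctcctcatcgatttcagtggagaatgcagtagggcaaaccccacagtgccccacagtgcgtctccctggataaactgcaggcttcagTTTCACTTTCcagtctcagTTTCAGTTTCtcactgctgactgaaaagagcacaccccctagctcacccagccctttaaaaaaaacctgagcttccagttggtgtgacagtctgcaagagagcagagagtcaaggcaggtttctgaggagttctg
Irgm2, chr11:58214727-58215026, plus strand: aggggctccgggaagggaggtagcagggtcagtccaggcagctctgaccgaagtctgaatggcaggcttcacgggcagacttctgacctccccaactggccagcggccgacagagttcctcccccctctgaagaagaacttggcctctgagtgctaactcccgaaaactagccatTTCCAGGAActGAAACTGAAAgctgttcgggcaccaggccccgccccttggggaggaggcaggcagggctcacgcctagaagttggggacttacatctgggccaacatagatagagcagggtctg
B2m, chr2:122147437-122147736, plus strand: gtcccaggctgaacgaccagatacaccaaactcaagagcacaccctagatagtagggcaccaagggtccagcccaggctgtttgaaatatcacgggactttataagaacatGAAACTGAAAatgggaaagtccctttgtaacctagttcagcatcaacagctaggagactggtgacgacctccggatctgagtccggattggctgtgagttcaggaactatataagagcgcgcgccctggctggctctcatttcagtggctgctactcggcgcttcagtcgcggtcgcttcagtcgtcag

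The Isg15 promoter held 3 overlapping ISRE matches, GAAAAGGAAA, GAAACCGAAA and GAAACAGAAA, which began 78, 72 and 66 bases before the start. Ifit1 had 2 matches on the opposite strand (TTTCACTTTC and TTTCAGTTTC), Irgm2 had GAAACTGAAA beside the GAS match TTCCAGGAA, and B2m had GAAACTGAAA 139 bases before the start. Ifi202b had no ISRE match in this window and 1 GAS match, TTCTCAGAA, 148 bases before the start. RefSeq promoters were matched for 50 of the 62 members, not including Ifi204 or Ifi27l2b. Where several starts were listed for a gene, only the first was searched. An ISRE match was present in 19 of those 50 (38%), and in 3.49% of the 27025 promoters in the table. A GAS match was present in 14 of the 50 (28%) against 8.47% of all promoters. Both RNA sensors and all 5 genes of the GTPase group with a promoter had an ISRE match. Ifi47, the GTPase gene counted among the effectors, had none. None of the 4 receptors and none of the 6 genes matched by name alone had one. A match describes the letters and does not show that a factor binds there.

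In mock cells, most interferon-stimulated and MHC class I genes had lower values in KO than in WT in replicate pairs 1 and 2, whereas in pair 3 most had higher values. By the mean of the 3 pairs, Isg15, Ifi204, Ifit1, Irgm2 and Ifit3 were furthest apart. Of 50 members, 42 were below WT in pair 1 (median log2 difference -0.81), 41 in pair 2 (-0.52) and 12 in pair 3 (0.14). Over all 10648 genes the medians of the same pairs were 0.07, 0.05 and 0.05. The pairs are given apart because WT and KO libraries of the same replicate number deviated together from their group means. All differences are KO minus WT on the log2(CPM + 1) scale, which understates changes of genes with low values.

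**Figure D1:**
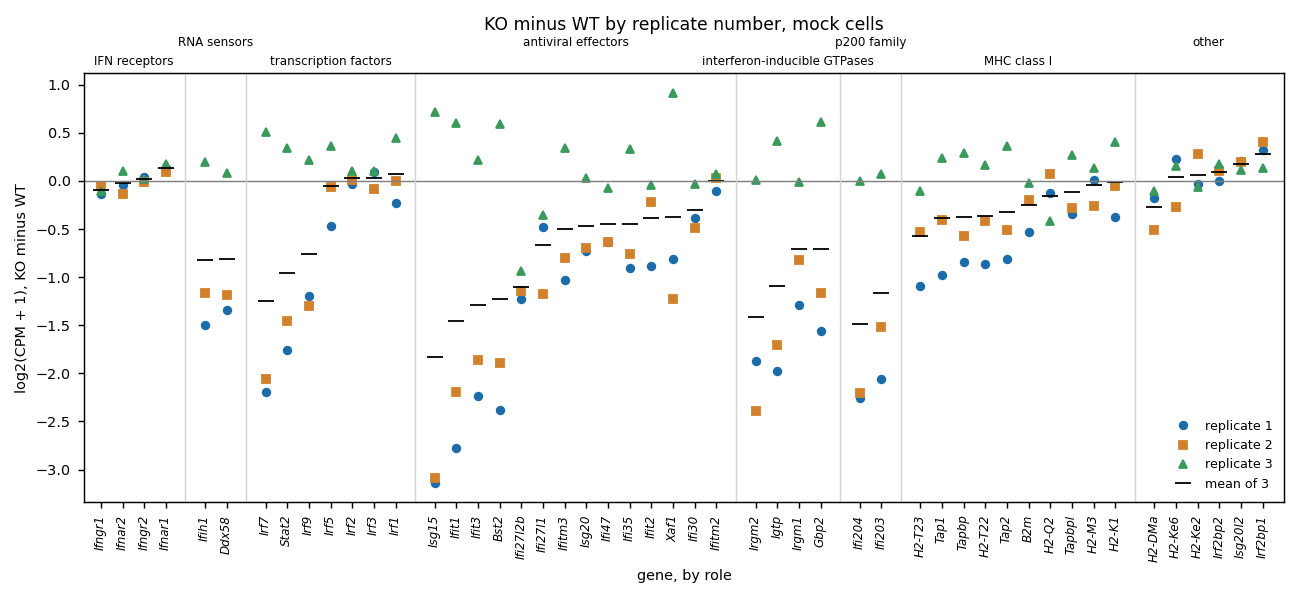
KO minus WT difference of the reported members in mock cells (y axis, log2(CPM + 1)) by gene and role (x axis), with 1 symbol per replicate number and a bar for the mean of 3. Circles and squares (pairs 1 and 2) lie below 0 for most antiviral, GTPase, p200 and MHC class I genes, with medians of -0.81 and -0.52 over all 50 members, and triangles (pair 3) lie near or above 0, with a median of 0.14.

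The receptor chains had small differences in all 3 pairs. Ifnar1, a chain of the type I interferon receptor, was at 82.2, 74.3 and 76.7 CPM in WT mock libraries 1 to 3 and at 90.0, 79.2 and 86.9 CPM in the KO libraries. Ifngr1, the ligand-binding chain for interferon-gamma, was at 60.5, 55.5 and 46.2 CPM in WT and 54.9, 53.5 and 43.1 CPM in KO. Ifngr2, its signalling partner, was at 96.0, 117 and 102 CPM in WT and 99.0, 117 and 104 CPM in KO. For all 3 the groups overlapped, and libraries of the same number lay close together. The median difference of the 4 receptor chains was 0.00 in pair 1, -0.03 in pair 2 and 0.06 in pair 3.

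The RNA sensors were high in 1 WT library. Ddx58, which encodes RIG-I, was at 126, 67.7 and 49.0 CPM in WT and 49.3, 29.3 and 51.9 CPM in KO mock cells, and Ifih1, which encodes MDA5, was at 35.9, 16.7 and 8.22 CPM in WT and 12.1, 6.92 and 9.58 CPM in KO. WT library 1 was the highest and KO library 2 the lowest for both sensors. KO minus WT was -1.34, -1.18 and 0.08 in pairs 1 to 3 for Ddx58 and -1.50, -1.16 and 0.20 for Ifih1, so that the third pair had the opposite sign.

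Among the transcription factors, Stat2, Irf7 and Irf9 were highest in WT library 1 and lowest in KO library 2. Stat2, which carries the type I interferon signal into the nucleus, was at 128, 45.3 and 47.6 CPM in WT and 37.1, 15.9 and 60.7 CPM in KO, with pair differences of -1.76, -1.45 and 0.34. Irf7, the interferon-inducible factor that drives type I interferon transcription, was at 43.6, 10.7 and 3.24 CPM in WT and 8.79, 1.82 and 5.02 CPM in KO. Irf9, the DNA-binding subunit of the complex that recognises the ISRE, was at 76.4, 39.3 and 32.3 CPM in WT and 32.7, 15.4 and 37.7 CPM in KO. Irf3, which is activated by phosphorylation after RNA or DNA sensing, was at 41.6, 38.2 and 43.1 CPM in WT and 44.3, 35.9 and 46.2 CPM in KO, and its pair differences of 0.09, -0.09 and 0.10 stayed near 0. Irf2 was likewise near 0 in every pair, at -0.03, 0.01 and 0.10.

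The widest mean difference of a member was that of an antiviral effector, Isg15. Isg15, a ubiquitin-like protein conjugated to other proteins, was at 175, 30.7 and 5.84 CPM in WT mock libraries 1 to 3 and at 19.0, 2.73 and 10.3 CPM in the KO libraries. Ifit1, which binds viral RNA lacking a host cap modification, was at 71.7, 13.8 and 4.17 CPM in WT and 9.61, 2.22 and 6.82 CPM in KO. Ifit3, which partners other IFIT proteins, was at 37.2, 7.57 and 2.72 CPM in WT and 7.13, 1.36 and 3.33 CPM in KO. In each of these genes WT library 1 was far above all others, WT library 3 was below KO library 3, and the groups overlapped. The pair differences of Isg15 were -3.14, -3.09 and 0.72, those of Ifit1 -2.78, -2.20 and 0.60 and those of Ifit3 -2.23, -1.86 and 0.22. Bst2, the tetherin that holds budding virions at the cell surface, had pair differences of -2.38, -1.89 and 0.60.

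Ifi27l2b was the effector with a similar difference in every pair. This gene of the Ifi27 family was at 5.37, 8.57 and 2.31 CPM in WT and 1.72, 3.33 and 0.733 CPM in KO mock cells, with pair differences of -1.23, -1.14 and -0.94. WT library 3 lay below KO library 2, so the groups overlapped although each KO library was below the WT library of its number. The membrane proteins that block viral entry differed from each other. Ifitm3 was at 378, 145 and 158 CPM in WT and 185, 82.7 and 201 CPM in KO, whereas Ifitm2 was at 143, 94.5 and 137 CPM in WT and 132, 96.6 and 144 CPM in KO. Ifi30, a lysosomal thiol reductase that prepares antigens, was at 91.0, 81.8 and 56.1 CPM in WT and 69.6, 57.9 and 54.9 CPM in KO. Of 14 effectors measured, 14 were below WT in pair 1, 13 in pair 2 and 5 in pair 3.

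All 4 measured genes of the GTPase group were below WT in pairs 1 and 2. Irgm1, which regulates its relatives and autophagy, was at 269, 191 and 95.9 CPM in WT and 109.6, 107 and 95.1 CPM in KO. Irgm2, a related regulator, was at 33.2, 11.6 and 6.13 CPM in WT and 8.34, 1.41 and 6.20 CPM in KO. Igtp, another regulator of the same family, was at 21.9, 6.06 and 2.72 CPM in WT and 4.84, 1.16 and 3.95 CPM in KO. The 3 KO values of Irgm1 lay within a narrow band, whereas its WT values spanned nearly the whole range of the table for that gene. In pair 3 the differences of Irgm1 and Irgm2 were -0.01 and 0.01, and that of Igtp was 0.41.

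The p200 genes, which bind DNA and take part in innate sensing, showed the same split by pair. Ifi204 was at 37.6, 16.4 and 5.96 CPM in WT and 7.07, 2.78 and 5.98 CPM in KO, and Ifi203 was at 19.7, 4.76 and 2.20 CPM in WT and 3.95, 1.01 and 2.37 CPM in KO. The pair differences were -2.26, -2.20 and 0.00 for Ifi204 and -2.06, -1.52 and 0.07 for Ifi203. Ifi202b was not in the mock table.

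Genes of MHC class I presentation had smaller differences than the effectors. B2m, the invariant light chain of MHC class I, was at 618, 435 and 427 CPM in WT and 429, 380.0 and 420.2 CPM in KO. Tapbp, or tapasin, which bridges the peptide transporter to MHC class I, was at 118, 77.1 and 50.2 CPM in WT and 65.2, 51.5 and 61.8 CPM in KO. H2-K1, a classical heavy chain, was at 95.3, 50.6 and 24.1 CPM in WT and 73.5, 48.7 and 32.1 CPM in KO. Library 1 was the highest of its genotype for all 3 genes, and the groups overlapped. The pair medians of the 10 class I genes were -0.67, -0.34 and 0.20. Tap1 and Tap2, the subunits of the peptide transporter, had pair differences of -0.98, -0.41 and 0.24 and of -0.81, -0.51 and 0.36.

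Of the 6 genes matched by name alone, 5 had a mean above WT in KO. The other one, H2-DMa, was below WT in every pair, by -0.18, -0.51 and -0.11. Irf2bp2 was at 81.0, 61.8 and 61.1 CPM in WT and 81.1, 66.3 and 69.0 CPM in KO, Isg20l2 was at 45.2, 51.8 and 48.0 CPM in WT and 52.3, 59.6 and 51.8 CPM in KO, and H2-Ke2 was at 28.0, 25.4 and 26.2 CPM in WT and 27.4, 31.0 and 25.0 CPM in KO. Isg20l2 and Irf2bp1 were the only members of the 50 with every KO library above every WT library, Isg20l2 by a margin smaller than the rounding, and no member had every KO library below. Over all genes in the mock table, 8.25% were separated upward and 1.74% downward.

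Without a replicate block, limma called 0 of 50 members and 0 of 10648 genes (0% called) in mock cells, at an adjusted p of 0.05 (Benjamini-Hochberg). At an unadjusted p of 0.05, 1 member, Irf2bp1, and 440 genes passed. Irf2bp1 was matched by name alone and was higher in KO, by 0.28. Isg15 differed by -1.84 (SE 1.20, adjusted p = 0.978) in the limma fit. When replicate number entered as a block, 1 member, Ifi27l2b, fell by 1.10 on the log2 scale (SE 0.13, limma adjusted p = 0.0410), and 98 genes were called (0.92% of all genes, 0.563% as higher and 0.357% as lower). With KO libraries 1 and 3 at or under 2 CPM, Ifi27l2b was listed through its WT level, so a KO value below WT is partly fixed by that selection. It was not called in that fit when pair 1 or pair 2 was left out (adjusted p 0.236 and 0.318). The median difference of the 50 members was -0.38, that of all genes 0.06, and 40 of the 50 were below WT.

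Which pairs entered the fit decided the calls. With the block and without pair 3, 33 of 50 members were called, 2 higher and 31 lower, against 22.9% of all genes called, 15.5% higher and 7.42% lower. Isg15 then differed by -3.11, Ifi204 by -2.23 and B2m by -0.36. Without pair 1 or without pair 2 the same fit called 0 members, and 4 and 0 genes (0.0376 and 0%). Each fit without 1 pair rests on 2 pairs. Without WT library 1, in the fit with no block, the median of the members was -0.09 in place of -0.38.

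**Figure D2:**
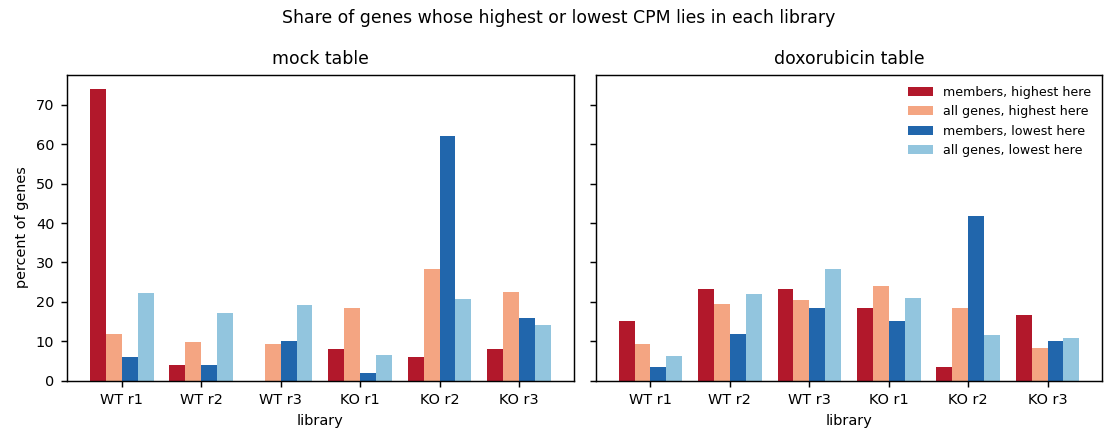
Share of genes (y axis, percent) whose highest or lowest CPM of a table lies in each of its 6 libraries (x axis; r1 to r3 are replicate numbers), for members (dark bars) and all genes (light bars). WT mock library 1 holds the highest value of 74% of members and 11.9% of all genes, and KO mock library 2 the lowest value of 62% of members and 20.7% of all genes.

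A pair of libraries held most of the extreme values. WT mock library 1 was the highest of the 6 for 37 of 50 members (74%), against 11.9% of all genes. KO mock library 2 was the lowest for 31 of 50 members (62%), against 20.7% of all genes. WT mock library 3, of the pair in which 38 of 50 members were above WT, was the highest for 0 members. Within the 3 WT mock libraries, the highest value of Isg15 was 29.9 times the lowest, that of Ifit1 17.2 times, Ifit3 13.7 times, Irf7 13.5 times and Bst2 9.83 times. The log2 range of Isg15 there, 4.68, equalled the maximum over all 10648 genes in that group. The median range of the 50 members was 1.22 in WT mock and 0.77 in KO mock, against 0.30 and 0.34 for all genes. The receptors, at 0.22 and 0.23, were no wider than the median gene. Cd68 was also highest in replicate number 1, in WT and more so in KO, while most members were highest in WT number 1; whether the cells it may mark contributed was not tested. Fibroblast and endothelial marker sums were lower in KO mock cells in every pair, and their part in the members' differences was not tested. In bulk RNA, a smaller share of responding cells and less RNA in each cell cannot be told apart.

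Members with an ISRE match had the larger pair differences in mock cells. The 17 members with a match had pair medians of -1.50, -1.16 and 0.20, and the 27 members whose promoter had none had -0.23, -0.22 and 0.13. Those 27 included the 4 receptors (0.00, -0.03 and 0.06) and the 6 genes matched by name alone (0.10, 0.15 and 0.12), so the contrast is also one between roles. All 211 genes of the mock table with a match had medians of 0.05, 0.03 and 0.07. For GAS matches, the 13 members with one had -0.73, -0.26 and 0.13 and the 31 without had -0.81, -0.51 and 0.16. After doxorubicin the order was the other way, with -0.09, -0.30 and 0.00 for the 19 members with an ISRE match and -0.27, -0.39 and -0.03 for the 29 without. These are descriptions of the same pairs, without a test.

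After doxorubicin, the pair medians of the members were nearer 0 than in mock cells, and a few genes, led by the p200 gene Ifi202b, stood apart in every pair. The pair medians of the 60 members, of which 48 were also among the mock members, were -0.14, -0.42 and 0.01, against 0.01, 0.05 and 0.04 for all 11125 genes. In pair 1, 37 of 60 members were below WT, in pair 2 it was 47 and in pair 3 it was 30. The KO libraries were all below the WT libraries for 8 members and all above for 3, where 6.64% and 9.7% of all genes were so separated.

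**Figure D3:**
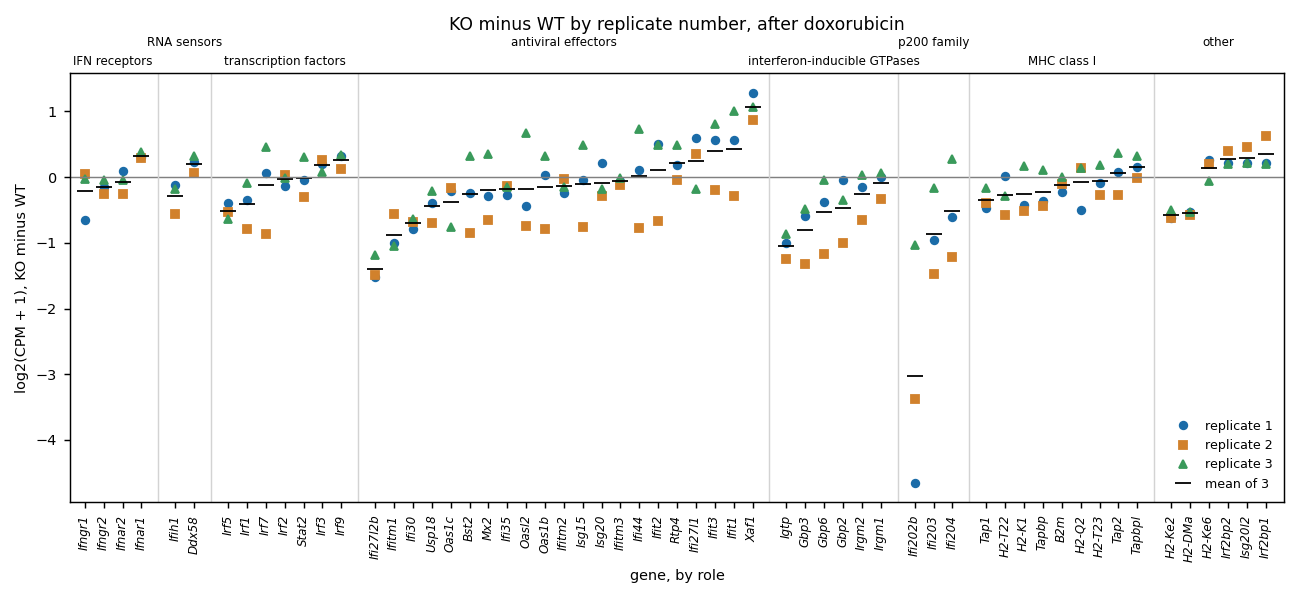
KO minus WT difference of the reported members after doxorubicin (y axis, log2(CPM + 1)) by gene and role (x axis), with 1 symbol per replicate number and a bar for the mean of 3. Ifi202b lies lowest, at -4.65, -3.38 and -1.04 in pairs 1 to 3, and the 3 symbols of Ifi27l2b, Igtp and Xaf1 lie on the same side of 0.

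Ifi202b had the widest difference. This p200 gene, whose product binds DNA and restrains the inflammasome sensor AIM2, was at 54.6, 52.0 and 8.85 CPM in WT doxorubicin libraries 1 to 3 and at 1.22, 4.10 and 3.79 CPM in the KO libraries. All KO values were below all WT values, but WT library 3 was far below the other WT libraries. Its expression is known to differ between mouse strains, and the strain alleles of these libraries at the locus were not examined. The difference was -3.02 (SE 0.68, limma adjusted p = 0.443) and passed with the replicate block (adjusted p = 0.0136), though not with the block and without pair 1 (adjusted p 0.0546). With KO library 1 at or under 2 CPM, a level at which no listed gene has a WT library, the direction is partly fixed by the selection of listed genes. Ifi203 was at 23.9, 23.3 and 11.4 CPM in WT and 11.9, 7.73 and 10.1 CPM in KO, and Ifi204 at 33.5, 28.6 and 9.07 CPM in WT and 21.7, 11.8 and 11.2 CPM in KO. For Ifi203 and Ifi204 WT library 3 was again the lowest of its group and overlapped the KO libraries.

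Without the block, 0 of 60 members and 0 of 11125 genes (0%) were called by limma, with 11 members and 1246 genes at an unadjusted p of 0.05. With the block, 16 members were called, 26.7% against 25.3% of all genes, a share near the background. By direction, 13 members fell (21.7%, against 13.6% of all genes) and 3 rose (5%, against 11.8%). Among those that fell were Ifi202b, Ifi27l2b, Igtp, Ifitm1, Ifi203, Gbp3, Ifi30, Irf5, Usp18, Tap1 and, of the genes matched by name alone, H2-Ke2 and H2-DMa. Xaf1, Ifnar1 and Irf2bp2 rose. With the block and 2 pairs, the number of members called was 5 without pair 1, 19 without pair 2 and 17 without pair 3, against 6.22, 23.3 and 14% of all genes. Ifi27l2b, Igtp, Ifi30 and Xaf1 were called in all 3 of those fits. Blood, endothelial and epithelial markers were also lower in KO after doxorubicin in every pair (sums given above). Neural markers were lower in pairs 1 and 3, and fibroblast markers in pairs 1 and 2. Their part in these falls was not tested.

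Ifi27l2b was at 9.58, 12.9 and 9.24 CPM in WT and 2.69, 3.95 and 3.50 CPM in KO after doxorubicin. Ifitm1, a membrane protein that blocks viral entry, was at 5.90, 6.63 and 5.68 CPM in WT and 2.43, 4.16 and 2.22 CPM in KO. Ifi30 was at 230.1, 288 and 455 CPM in WT and 133, 178 and 293 CPM in KO. The groups were apart for Ifi27l2b and Ifitm1, while Ifi30 overlapped because its libraries differed by number, number 3 being the highest in both genotypes. With the block, Ifi27l2b fell by 1.40 on the log2 scale (limma adjusted p = 0.00440), Ifitm1 fell by 0.88 (limma adjusted p = 0.0125) and Ifi30 fell by 0.70 (limma adjusted p = 0.00440).

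Xaf1, a proapoptotic gene induced by interferon, went the other way. It was at 19.0, 12.0 and 36.7 CPM in WT and 47.8, 22.7 and 78.6 CPM in KO, and each KO library was above the WT library of its number although the groups overlapped. The difference was 1.07, called with the block (limma adjusted p = 0.00449) and not without it (limma adjusted p = 0.444). In mock cells its pair differences had been -0.81, -1.22 and 0.92.

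Of the 6 genes of the GTPase group, 0 were called without the block, and 2, Igtp and Gbp3, fell with it. The pair medians of the 6 were -0.27, -1.09 and -0.20, and 4 were below WT in all 3 pairs. Igtp was at 33.0, 25.7 and 38.5 CPM in WT and 15.9, 10.2 and 20.6 CPM in KO, and Gbp3, a guanylate-binding protein, was at 20.3, 24.3 and 24.3 CPM in WT and 13.1, 9.15 and 17.1 CPM in KO. The groups did not overlap for either gene. With the block Igtp fell by 1.04 (limma adjusted p = 0.00463) and Gbp3 fell by 0.80 (limma adjusted p = 0.0207). Irgm1, at 230.2, 232 and 217 CPM in WT and 232, 184 and 228 CPM in KO, and Irgm2, at 24.1, 19.6 and 20.6 CPM in WT and 21.6, 12.1 and 21.0 CPM in KO, were not called, and their WT values now lay close together.

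Of the receptors and sensors, Ifnar1 was the one called after doxorubicin, and the transcription factor gene Irf5 fell. Ifnar1 was at 67.9, 65.4 and 55.4 CPM in WT and 84.4, 80.4 and 72.5 CPM in KO, with no overlap, and rose by 0.33 with the block (limma adjusted p = 0.0230). Ifngr1 was at 99.0, 72.6 and 60.7 CPM in WT and 62.8, 75.1 and 59.3 CPM in KO, and Ifngr2 at 122, 129 and 127 CPM in WT and 109, 108 and 123 CPM in KO. Neither interferon-gamma receptor chain was called. Ddx58 was at 90.7, 77.4 and 88.8 CPM in WT and 106, 81.3 and 112 CPM in KO, and Ifih1 at 42.1, 37.4 and 48.8 CPM in WT and 38.8, 25.1 and 43.1 CPM in KO. Stat2 was at 115, 74.1 and 113 CPM in WT and 112, 59.8 and 139 CPM in KO, and Irf3 was at 46.9, 40.2 and 52.1 CPM in WT and 54.1, 48.4 and 55.0 CPM in KO. For both sensors and Stat2 KO library 2 was below KO libraries 1 and 3, and KO library 2 was the lowest of the 6 for 25 of 60 members (41.7%, against 11.6% of all genes).

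For Isg15, Ifit1 and Ifit3 the groups overlapped after doxorubicin, and none was called. Isg15 was at 97.7, 67.4 and 70.9 CPM in WT and 94.5, 39.5 and 100.5 CPM in KO, Ifit1 at 19.3, 12.6 and 14.3 CPM in WT and 29.0, 10.2 and 29.7 CPM in KO, and Ifit3 at 16.0, 12.5 and 8.24 CPM in WT and 24.3, 10.8 and 15.1 CPM in KO. Their pair differences were -0.05, -0.76 and 0.50 for Isg15, 0.56, -0.28 and 1.00 for Ifit1 and 0.57, -0.20 and 0.80 for Ifit3, below WT in pair 2 and above it in pair 3. Ifitm2, at 183, 172 and 191 CPM in WT and 155, 169 and 172 CPM in KO, and Ifitm3, at 476, 405 and 479 CPM in WT and 456, 375 and 475 CPM in KO, differed by at most 0.24 in any pair.

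Of the class I genes, Tap1 was called with the block. It fell by 0.35 in KO (limma adjusted p = 0.0270), from 114, 97.5 and 151 CPM in WT to 81.8, 73.9 and 134 CPM in KO. B2m was at 756, 773 and 682 CPM in WT and 644, 716 and 680.4 CPM in KO, Tapbp at 188, 196 and 129 CPM in WT and 145, 145 and 139.6 CPM in KO, and H2-K1 at 142, 153 and 63.2 CPM in WT and 106, 107 and 71.0 CPM in KO. None of these 3 was called. Among the genes matched by name alone, H2-Ke2 was at 58.0, 78.9 and 80.4 CPM in WT and 37.2, 51.2 and 56.6 CPM in KO, Isg20l2 at 40.1, 33.3 and 37.7 CPM in WT and 46.7, 46.4 and 43.8 CPM in KO, and Irf2bp2 at 69.1, 58.9 and 58.3 CPM in WT and 80.5, 78.1 and 67.1 CPM in KO.

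Many of the members rose with doxorubicin in each genotype, and Tap1 rose by a similar amount in both. Tap1 was at 26.2, 9.32 and 13.7 CPM in WT mock and 114, 97.5 and 151 CPM in WT doxorubicin libraries, and at 12.8, 6.77 and 16.3 CPM in KO mock and 81.8, 73.9 and 134 CPM in KO doxorubicin libraries. It rose by 2.90 in WT (SE 0.38, limma adjusted p = 0.000162) and by 2.94 in KO (SE 0.38, limma adjusted p = 0.000310), doxorubicin minus mock on the log2(CPM + 1) scale. All doxorubicin libraries were above all mock libraries for 18 of 48 members in WT, against 29.4% of all genes, and for 31 in KO, against 27.1%. Tap1, Irf5, Ifi30, Igtp, Ifih1, Tapbp, Ifitm3 and B2m were separated so in both genotypes.

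In WT, 17 of the 48 members measured in both tables rose (35.4%, against 25.9% of the 10292 shared genes) and 3 fell (6.25%, against 21.4%). In KO, 23 rose (47.9%, against 19.9%) and 1, Irf1, fell (2.08%, against 14.6%). Called in either direction were 47.3% of all genes in WT and 34.5% in KO. With the replicate block 26 members were called in WT and 35 in KO, against 63.7 and 53.7% of all genes, and the count of all genes called in KO went from 3552 to 5524. Median centring moved the median response of all genes in WT from 0.01 to -0.10, so responses are best read against that shift. The median response of the members was 0.58 in WT and 0.90 in KO, against 0.01 and 0.04 for all genes. The count of members called in WT was 13 without WT mock library 2 and 11 without WT mock library 3.

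**Figure D4:**
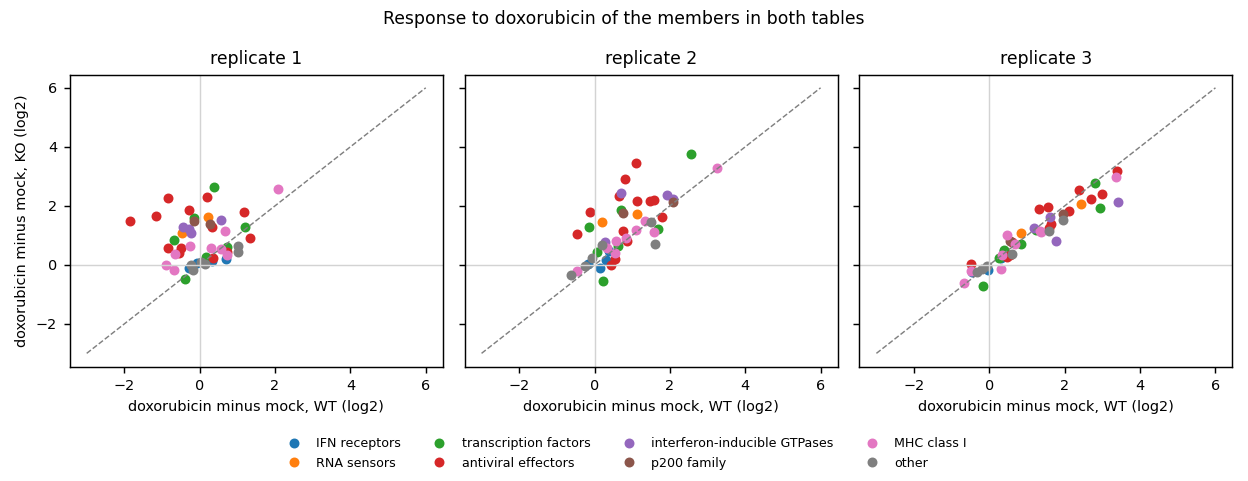
Doxorubicin minus mock difference of the reported members in both tables, in WT (x axis) against KO (y axis), on the log2(CPM + 1) scale, with 1 panel per replicate number and colours for roles. The dashed line marks equal responses. Over all 48 members the medians were 0.09 in WT and 0.64 in KO in replicate 1, and 1.01 and 1.05 in replicate 3.

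By replicate number, the WT response differed more than the KO response. Same-numbered mock and doxorubicin libraries deviated together with r across genes of 0.394, 0.517 and 0.517 in WT and 0.428, 0.728 and 0.631 in KO. All of these but the 0.728 of KO number 2 were below every r between same-numbered WT and KO libraries. The numbers thus link treatments less firmly than genotypes, in KO as well as in WT. The WT medians were 0.09, 0.70 and 1.01 for numbers 1, 2 and 3, with 25, 40 and 39 of 48 members above mock. The KO medians were 0.64, 1.16 and 1.05, with 42, 43 and 39 members above mock. The WT mock library of number 1, high for most members before treatment, was the one with the smallest difference. Isg15 in WT differed from mock by -0.83, 1.11 and 3.39 for numbers 1 to 3, and in KO by 2.26, 3.44 and 3.17. Ifit1 differed by -1.84, -0.12 and 1.57 in WT and by 1.50, 1.79 and 1.97 in KO. The spread between WT libraries of the members was smaller after doxorubicin, with a median log2 range of 0.56 over 60 members, against 1.22 over 50 in mock. Over all genes the WT range was 0.45 after doxorubicin and 0.30 in mock. In KO the members' range was 0.67 after doxorubicin and 0.77 in mock, and that of all genes 0.39 and 0.34.

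**Figure D5:**
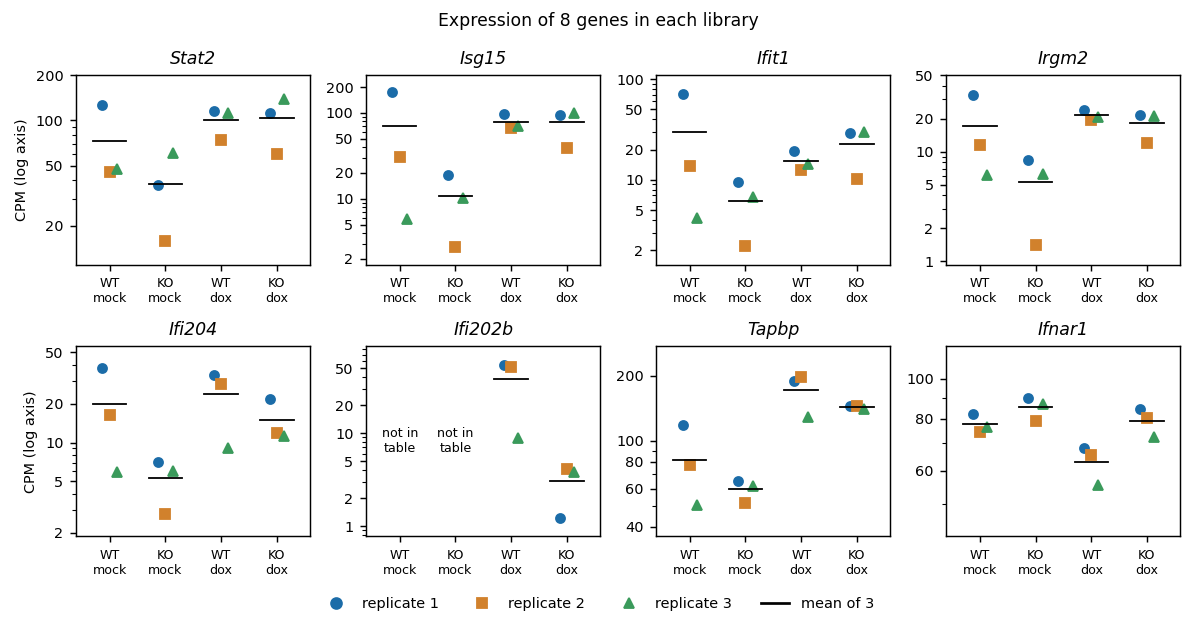
CPM (y axis, log scale) of 8 members in every library, by group (x axis), with 1 symbol per replicate number and a bar for the mean of 3. WT mock values of Isg15 run from 5.84 to 175 CPM and WT doxorubicin values from 67.4 to 97.7 CPM. Ifnar1 runs from 55.4 to 90.0 CPM over all groups and is lowest in WT doxorubicin libraries.

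Transcription factors and sensors were among those that rose in both genotypes. Irf5, a factor in inflammatory gene induction, rose by 1.94 and 1.47, and Irf7 by 1.92 and 3.05, in WT and KO. Irf7 lost its call in WT with median centring and with a pseudocount of 0.25. Ifih1 rose by 1.26 in WT and 1.79 in KO. Ddx58 rose by 1.21 in KO (limma adjusted p = 0.0108) and differed by 0.19 in WT (limma adjusted p = 0.634). Irf1, a factor induced by interferon-gamma, fell by 0.59 in KO (limma adjusted p = 0.0327).

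Effectors and GTPases gave the larger responses in KO for most genes, but the difference between genotypes did not pass. Ifi30 rose by 2.04 in WT and 1.64 in KO, Ifitm3 by 1.13 and 1.57, and Igtp by 1.97 and 2.01. Isg15 rose by 2.96 in KO (limma adjusted p = 0.0331) and differed by 1.22 in WT (SE 0.96, limma adjusted p = 0.313). With single libraries left out, that WT difference ranged from 0.07 to 2.42. The upper value, without WT mock library 1, was a call. Xaf1 rose by 2.58 in KO and differed by 1.13 in WT, where it was called only with the block or without pair 1 under it. The test of the difference itself, the genotype by doxorubicin interaction, called 0 of 48 members and 0 of 10292 genes (0%) with or without the block. At an unadjusted p of 0.05 it passed 2 members and 468 genes without the block, and 6 members and 1610 genes with it. Isg15 had an interaction of 1.73 (SE 1.35) and Ddx58 of 1.02 (SE 0.43), KO response minus WT response.

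MHC class I genes split in their response. In WT 4 of 9 rose (44.4%, against 25.9% of all genes) and 1, Tapbpl, fell (11.1%, against 21.4%), and in KO 4 of 9 rose (44.4%, against 19.9%). B2m rose by 0.60 in WT and 0.73 in KO, and Tapbp by 1.11 and 1.26. H2-T22 and H2-T23, nonclassical heavy chains, and Tap2 did not pass in either genotype, with responses between -0.19 and 0.51. Of the 4 receptors in WT, Ifngr1 rose by 0.49 (limma adjusted p = 0.0441) and Ifnar1 fell by 0.30 (limma adjusted p = 0.0345). That is 25% each way, against 25.9% and 21.4% of all genes. In KO Ifngr1 differed by 0.37 and Ifnar1 by -0.11, and neither was called. The median response of the receptors was 0.16 in WT and 0.06 in KO. The KO median turned to -0.03 with median centring and -0.02 with quantile normalization.

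Other genes of the pathway, taken from a list of 84 of which 65 were measured, were counted alongside. They comprised JAK-STAT signalling, nucleic acid sensing, the immunoproteasome with peptide loading, and further interferon-stimulated genes. In mock cells 0 of 58 were called with or without the block, and the pair medians of the 30 further interferon-stimulated genes were -0.91, -0.56 and 0.18. The 10 JAK-STAT genes had pair medians of 0.07, 0.07 and 0.18. After doxorubicin 0 of 64 were called without the block, and with it 7 fell and 1 rose. That is 12.5% called, fewer than the 25.3% of all genes in the same fit. Nlrc5, the transactivator of MHC class I genes, was at 7.50, 6.73 and 29.0 CPM in WT and 5.89, 4.58 and 18.5 CPM in KO, and the immunoproteasome subunit gene Psmb9 was at 9.09, 9.65 and 19.7 CPM in WT and 4.48, 4.37 and 12.6 CPM in KO. Psme2, which encodes a proteasome activator subunit, fell by 0.51 with the block (limma adjusted p = 0.00700), Nlrc5 fell by 0.46 (limma adjusted p = 0.0410) and Psmb9 fell by 0.82 (limma adjusted p = 0.00979). Parp10, Lgals9, Pml and Slfn2 also fell, and Tmem173, which encodes the DNA-sensing adaptor STING, rose by 0.54. In response to doxorubicin 18 of 57 rose (31.6%, against 25.9% of all genes) and 2 fell (3.51%, against 21.4%) in WT. In KO 22 rose (38.6%, against 19.9%) and 0 fell (0%, against 14.6%).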

How the data were processed

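RNA was measured in 12 libraries. The authors deposited CPM for each gene, in a mock table and a doxorubicin table that each hold both genotypes. Per the submitters' processing notes, TopHat2 2.0.6, HTSeq, edgeR and the mouse build NCBIM37 were used, and what each did is not given in the sources used here; a stranded mRNA kit was used, per the labels' protocols. Within each library 100% of values were whole multiples of 1 read within 0.001 read, which gave the totals, so both tables shared a scale. The listed genes held 99.2 to 99.6% of the totals.

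Tests used limma (version 3.58.1, R 4.3.3; lmFit, eBayes with trend) on log2(CPM + 1), adjusted by Benjamini-Hochberg over all genes at 0.05. Genotypes were compared inside a table, and doxorubicin with mock and the interaction in all 12 libraries over 10292 shared genes. The fit was checked on simulated data in which a KO change was the same in all pairs. That check does not cover changes that reverse between pairs. Same-numbered WT and KO libraries deviated together (r across genes 0.710 to 0.855 in mock and 0.669 to 0.800 after doxorubicin), so a fit with the replicate number as block was run beside that without it. The pairing comes from the data and the shared numbers, since the meaning of a number is not labelled. No gene had a WT library at or under 2 CPM, whereas 164 mock and 313 doxorubicin genes had such a KO library.

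The rule for naming took the members called in a genotype comparison (at most the 6 with the widest difference per table), up to 3 per role with the highest mean CPM, and the 5 with the widest genotype difference per table. Irf7, Irf9, Tap1 and the members given only by differences or names are outside it and were chosen after their values were seen. Some members enter the counts and medians but are not reported here by name. Members, lists and tests were chosen with earlier results of these data known. Gene names were matched to RefSeq (GRCm38.p6), 60 of the 62 members by current symbol and 2 by a synonym, and 50 of them had a promoter listed. Alternatives were the block, a pseudocount of 0.25, a mean of at least 5 CPM, quantile normalization, median centring, and leaving out each library or each pair.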

Additional observations from a re-analysis of the deposited data

How the results depend on the processing

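The members' median difference kept its sign in all 5 comparisons under each alternative run, but the replicate block and the choice of pairs decided how many KO against WT calls were made. In mock cells 98 genes and 1 member were called with the replicate block, in place of 0 and 0. With the block the counts were 4 genes and 0 members without replicate 1, 0 and 0 without replicate 2, and 2438 genes and 33 members without replicate 3. After doxorubicin the block gave 2820 genes and 16 members in place of 0 and 0, and 692, 2590 and 1560 genes with 5, 19 and 17 members without replicates 1, 2 and 3. A pseudocount of 0.25 gave 1 gene. Leaving out single libraries without the block gave 0 calls in both genotype comparisons and in the interaction. The median difference of the members then ran from -0.58 to -0.09 in mock cells and from -0.24 to -0.05 after doxorubicin.

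Members called in the WT response ranged from 11 to 24 over single libraries left out (13 without WT mock replicate 2 and 11 without WT mock replicate 3), and in the KO response from 17 to 28, with 3870 to 4839 and 2546 to 3699 genes. The block raised the genes called in the KO response to 5524. The WT responses of 4 genes turned in sign, none of them called with all libraries. Ddx58 ranged from -0.11 without WT mock replicate 3 to 0.56 without WT mock replicate 1 and was -0.14 with the block and without replicate 3. Irgm1 ranged from -0.00029 without WT mock replicate 3 to 0.74 without WT mock replicate 1. Ifit1 ranged from -1.02 without WT mock replicate 3 to 0.89 without WT mock replicate 1 and was 0.72 with the block and without replicate 1. Irf1 ranged from -0.25 without WT doxorubicin replicate 2 to 0.064 without WT doxorubicin replicate 3, and was 0.055 without WT mock replicate 1 and 0.026 with the block and without replicate 1. Of the single-gene values under alternatives, 1028 kept direction and call, 60 gained a call, 42 lost it and 8 turned in sign. Beyond the smaller number of libraries, the cause was not tested. Higher genes made up 54.8% of the calls in the WT response and 57.8% in KO, against 45.4 and 49.8% with quantile normalization and 42.8 and 45.2% with median centring.

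Count tests with edgeR, with and without the block, had been intended and were not run. Reads rebuilt from the CPM were used for library totals alone, and the values were tested in the unit deposited. Precision is limited by 3 libraries a group and, for members of a few CPM, by low counts.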
